A study of Mus musculus with 8 samples.

Results

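The genes described are the 10 AP-1 transcription factor genes Fos, Fosb, Fosl1, Fosl2, Jun, Junb, Jund, Atf3, Batf and Batf3, taken by symbol from a table of 41444 genes measured by bulk RNA-seq. The cells were macrophages grown from the bone marrow of wild-type C57BL/6 mice with M-CSF, the macrophage growth factor. In the SLIT2 group they received SLIT2 at 6 nM for 16 hours, and in the other group they received vehicle. SLIT2 is a secreted ligand of ROBO receptors, best known from axon guidance, and the comparison asks how it changes transcription in these macrophages. Each group held 4 libraries, numbered 1 to 4, and all 8 shared strain, genotype, tissue and culture. The labels used here state neither the sex and age of the mice nor any pooling of their cells.

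AP-1 is a family of dimers that bind DNA through a basic region and a leucine zipper (bZIP). JUN proteins pair with each other or with FOS proteins, and FOS proteins need a JUN partner. ATF3 and the BATF proteins also pair with JUN proteins, and BATF factors lack the activation domains of FOS and often bind beside interferon regulatory factors. Many of these genes are early response genes, whose messages appear within minutes of a stimulus and decay quickly. In macrophages AP-1 dimers bind enhancers together with the lineage factor PU.1 and take part in inflammatory gene induction.

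Expression values were regularized-log (rlog) values on a log2 scale, in which a difference of 1 is a doubling of the normalised read count. The rlog transform shrinks values towards the mean of a gene, which understates differences of genes with few reads. A gene was tested when its mean rlog over the 8 libraries was at least 4, and 11851 genes were. Of the 10 AP-1 genes, 8 were tested, while Fosl1 and Fosb fell below that level. Read counts were not among the values, so library depth is unknown and values carry no counting interval. In bulk samples fewer cells that express a gene and less of its RNA per cell cannot be told apart. In both groups the libraries fell into a pair 1, 2 and a pair 3, 4. Over all genes tested this division accounted for 46.7% of the variation (sum of squares), and treatment for 37.3%. The labels do not say what a replicate number marks, and the values within each pair are therefore given beside the pooled ones.

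The AP-1 genes moved in opposite directions. Junb, Fosl2 and Batf rose with SLIT2, by factors of 1.67, 1.69 and 1.77, while Fos and Atf3 fell to 51.6% and 53.9% of the vehicle level. Jun, Jund and Batf3 were tested and did not pass. In all, 5 of the 8 genes tested passed limma's test at an adjusted p of 0.05, against 13.3% of all genes tested. The 3 that rose stand beside 6.76% of all genes higher, and the 2 that fell beside 6.58% of all genes lower. The median absolute log2 difference was 0.75 over the 8 AP-1 genes and 0.11 over all genes tested.

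The stretches of DNA just before the start sites of the 5 genes that passed, and of Jun, are shown because these genes lie in one family and moved together or in opposite directions. Each is the 250 bases before a RefSeq start site in GRCm38.p6, written 5′ to 3′ on the strand of the gene. The RefSeq starts of Fosl2, Atf3 and Batf lie inside the GENCODE spans of these genes given below. The table of promoter windows had an entry for 9 of the 10 genes, all but Fosl1. Capitals mark motif matches on either strand, with N as any base. The AP-1 site TGANTCA and TGACNTCA, a loosened form of the cyclic AMP response element, were sought. So were the core of that element, TGACG, the STAT site TTCNNNGAA and the CArG box of serum response factor. The core lies within the longer pattern only where N is G, and such matches overlap.
Fos, chr12:85473640-85473889, plus strand: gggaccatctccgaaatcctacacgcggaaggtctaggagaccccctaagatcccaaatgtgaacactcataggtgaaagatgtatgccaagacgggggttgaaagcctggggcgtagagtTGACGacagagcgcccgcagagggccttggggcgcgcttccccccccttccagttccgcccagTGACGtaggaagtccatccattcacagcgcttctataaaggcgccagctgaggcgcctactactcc
Atf3, chr1:191183334-191183583, minus strand: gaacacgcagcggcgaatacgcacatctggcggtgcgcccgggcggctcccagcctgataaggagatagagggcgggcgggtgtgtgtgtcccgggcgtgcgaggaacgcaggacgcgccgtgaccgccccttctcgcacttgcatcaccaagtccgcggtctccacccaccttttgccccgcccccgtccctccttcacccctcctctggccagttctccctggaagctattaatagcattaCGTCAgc
Junb, chr8:84978749-84978998, minus strand: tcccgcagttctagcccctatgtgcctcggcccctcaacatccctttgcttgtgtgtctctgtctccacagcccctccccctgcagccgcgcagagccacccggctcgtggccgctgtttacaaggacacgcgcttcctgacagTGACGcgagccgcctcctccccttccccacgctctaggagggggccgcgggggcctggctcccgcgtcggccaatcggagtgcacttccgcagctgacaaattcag
Batf, chr12:85686470-85686719, plus strand: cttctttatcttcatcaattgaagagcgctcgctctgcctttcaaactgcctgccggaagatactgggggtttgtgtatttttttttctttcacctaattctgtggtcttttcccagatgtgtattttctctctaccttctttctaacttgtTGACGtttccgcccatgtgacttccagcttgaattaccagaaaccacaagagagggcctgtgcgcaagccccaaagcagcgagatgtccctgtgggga
Fosl2, chr5:32136222-32136471, plus strand: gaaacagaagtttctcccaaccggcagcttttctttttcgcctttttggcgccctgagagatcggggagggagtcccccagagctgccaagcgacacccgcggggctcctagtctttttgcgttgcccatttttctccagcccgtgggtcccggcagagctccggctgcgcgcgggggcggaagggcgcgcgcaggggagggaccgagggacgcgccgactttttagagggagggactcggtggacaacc
Jun, chr4:95052223-95052472, minus strand: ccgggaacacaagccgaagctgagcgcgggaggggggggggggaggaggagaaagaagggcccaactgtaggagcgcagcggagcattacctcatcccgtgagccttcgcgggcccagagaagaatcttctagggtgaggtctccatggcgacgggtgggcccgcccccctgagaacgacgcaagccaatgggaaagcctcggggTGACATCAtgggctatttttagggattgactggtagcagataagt

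The core TGACG stood in the Fos window at positions -129 to -125 and -66 to -62, counted from the start site, and in the Junb window at -106 to -102. In Batf it lay at -98 to -94 and in Atf3, on the opposite strand as CGTCA, at -7 to -3. Genes that rose and genes that fell thus both had this core, which 17.8% of all 32851 windows hold. Jun had TGACATCA at -45 to -38, a match to the loosened pattern that does not hold the core TGACG. Of all windows, 7.49% hold a match to TGACNTCA. The Fosl2 window held none of the 5 motifs. A match to TGANTCA was found in none of the 9 windows of these genes, and 6.75% of all windows hold one. Other forms of an AP-1 site were not sought as such, so this result covers TGANTCA alone. The Jund window, not printed, was 70697489 to 70697738 on chromosome 8, upstream of the GENCODE start of Jund at 70698949. The RefSeq starts of Fosb and Batf3 lie inside the GENCODE spans of these genes. Of the windows not printed, that of Fosb held the core at -60 to -56, and that of Batf3 held a match to the STAT site, TTCCACGAA, at -239 to -231. Matches to TTCNNNGAA and to the CArG box occur in 7.02% and 1.47% of all windows. No window of these genes matched the CArG box, but bases further upstream were not searched and could hold one. A match is a run of letters and not a measured site of binding.

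Among the FOS genes, Fos fell and Fosl2 rose. Fos (ENSMUSG00000021250, chromosome 12, 85473890 to 85477273 on the plus strand in GRCm38, 4 exons) encodes the founding early response FOS protein. Its rlog values were 10.76, 10.75, 10.42 and 10.40 in SLIT2 libraries 1 to 4, against 11.78, 11.83, 11.29 and 11.25 in vehicle libraries 1 to 4. All SLIT2 libraries lay below all vehicle libraries, and within each group replicates 1 and 2 were the higher pair. Fos averaged 10.58 ± 0.20 with SLIT2 and 11.54 ± 0.31 with vehicle (SD, n = 4 each), a log2 difference of -0.96 (SE 0.16, limma adjusted p = 0.00615). Replicates 1 and 2 gave -1.05, and replicates 3 and 4 gave -0.86.

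Fosl2 (ENSMUSG00000029135, chromosome 5, 32135801 to 32157842, plus strand, 4 exons) encodes FRA-2, a FOS relative without the strong activation domain of FOS. Its values were 11.94, 11.93, 11.44 and 11.36 with SLIT2, against 11.18, 11.27, 10.61 and 10.59 with vehicle. The groups did not overlap, but only 0.09 log2 units separated the lowest SLIT2 library, replicate 4, from the highest vehicle library, replicate 2, since the replicate pairs differed by nearly as much as the treatments. Fosl2 averaged 11.67 ± 0.31 with SLIT2 and 10.91 ± 0.36 with vehicle (SD, n = 4 each), a difference of 0.76 (SE 0.21, limma adjusted p = 0.0472). Within the pairs it was 0.71 and 0.80, and with replicate number as a block the limma adjusted p was 5.81e-05. With each replicate pair averaged first, the limma adjusted p was 0.0292. Without the block, the call was lost on leaving out SLIT2 replicate 1 (adjusted p = 0.116), 2 (0.123) or 3 (0.0641), or vehicle replicate 1 (0.0595), 3 (0.113) or 4 (0.111), with differences between 0.65 and 0.84. It was also lost with no filter on low genes (limma adjusted p = 0.0644) and without a variance trend (0.0534).

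Fosb and Fosl1, which encode the other FOS proteins, were below the level for testing. Fosb ranged from 1.54 to 1.85 with SLIT2 and from 1.53 to 1.88 with vehicle, and Fosl1 from 3.06 to 3.33 with SLIT2 and from 3.12 to 3.81 with vehicle. Their mean differences were -0.005 and -0.21, and the groups overlapped for both genes. A two-sided exact permutation test over the 8 libraries, in which the smallest p is 0.0286, gave p = 0.914 for Fosb and p = 0.229 for Fosl1. Fosl1 shares 1163 exonic bases with Ccdc85b on the opposite strand, and whether the counting used strand is not stated. Ccdc85b averaged 7.61 with SLIT2 and 7.82 with vehicle (limma adjusted p = 0.358, or 0.0345 with the replicate block).

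**Figure D1:**
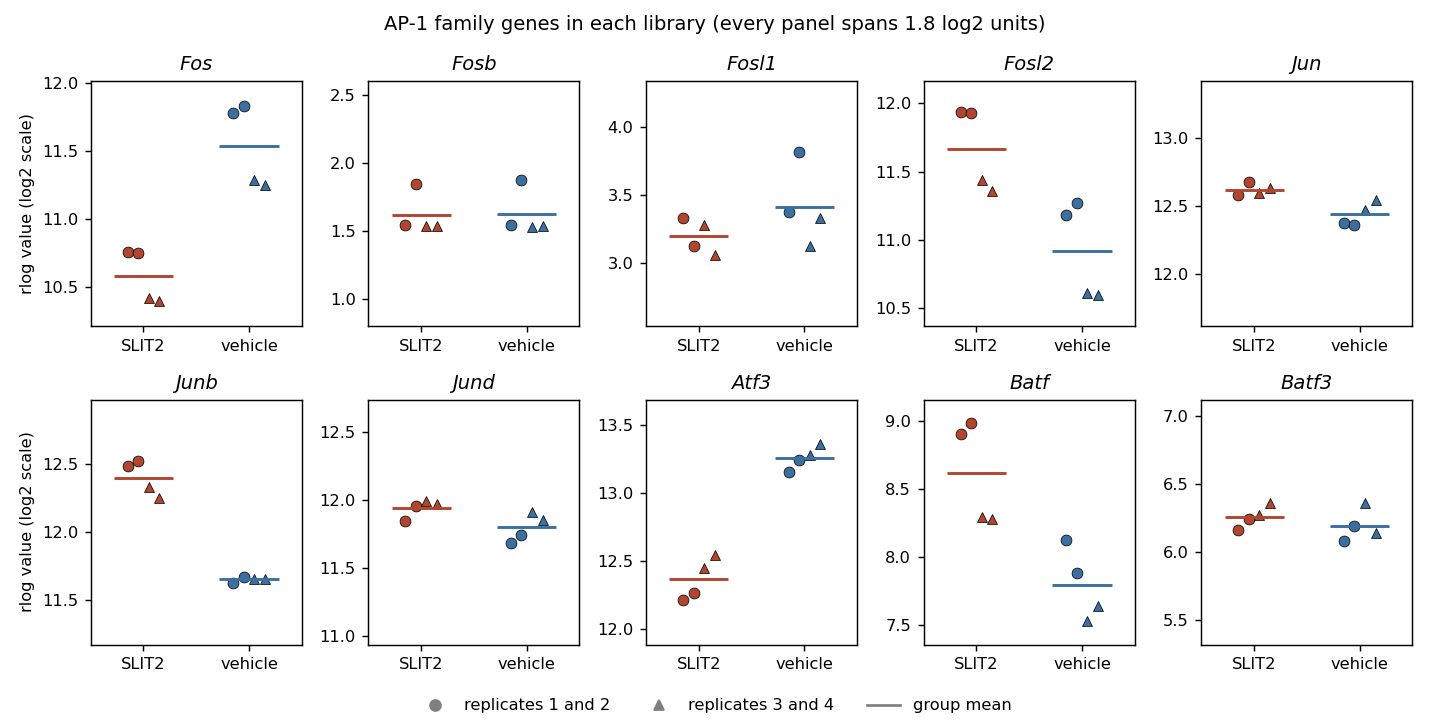
rlog value (log2 scale) of each AP-1 gene in each library, SLIT2 left and vehicle right, with circles for replicates 1 and 2, triangles for replicates 3 and 4, and lines for group means. Fos and Atf3 lie lower and Junb, Fosl2 and Batf higher in every SLIT2 library than in any vehicle library, and Fos, Fosl2 and Batf also split by replicate pair.

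Junb was the JUN gene that rose. Junb (ENSMUSG00000052837, chromosome 8, 84974484 to 84978718, minus strand, 1 exon in its main transcript) encodes a JUN protein that is a weaker activator than c-JUN on many promoters. Its values were 12.49, 12.52, 12.33 and 12.25 with SLIT2, against 11.63, 11.67, 11.66 and 11.66 with vehicle. The vehicle libraries spanned 0.04 log2 units, and every SLIT2 library stood at least 0.58 above them. Junb averaged 12.40 ± 0.13 with SLIT2 and 11.66 ± 0.017 with vehicle (SD, n = 4 each), a difference of 0.74 (SE 0.064, limma adjusted p = 2.58e-04). The pair 1, 2 gave 0.86 and the pair 3, 4 gave 0.63. Junb shares 173 exonic bases with Prdx2 on the opposite strand. Prdx2, a peroxidase gene, was itself higher by 0.22 (SE 0.057, limma adjusted p = 0.0432, up to 0.111 on leaving out a library).

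The effect on Junb was smaller in replicates 3 and 4. The difference between the pairs was -0.23 (SE 0.049, limma interaction adjusted p = 0.0442). It was the only 1 of the 8 AP-1 genes tested to pass this test, which 4.4% of all genes passed. That call was lost without a variance trend, with quantile normalization, with no filter, and on leaving out any 1 library other than SLIT2 replicate 3. The test rests on the spread between replicates of a pair. For Batf the difference between the pairs was -0.24, without a call (limma interaction adjusted p = 0.361). The effects on Fos, Atf3, Jun and Jund were also smaller in replicates 3 and 4, while that on Fosl2 was larger.

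Jun and Jund changed little. Jun, the gene of c-JUN (ENSMUSG00000052684, chromosome 4, 95049034 to 95052222, minus strand, 1 exon), had values of 12.58, 12.67, 12.59 and 12.63 with SLIT2, against 12.37, 12.36, 12.47 and 12.54 with vehicle. The groups did not overlap, by a margin of 0.04, and the mean difference was 0.18 (SE 0.051, limma adjusted p = 0.0514). With the replicate block Jun passed (limma adjusted p = 0.0182), and likewise without vehicle replicate 4 (0.0305). The replicate pair as block (0.00569) and replicates 1 and 2 alone (0.00364) also gave a call. Jun did not pass with averaged replicate pairs (limma adjusted p = 0.160), with quantile normalization (0.218) or in replicates 3 and 4 alone (0.101). Leaving out any other library gave no call either (adjusted p up to 0.133). Jund, which encodes a JUN protein that most cells make without a stimulus, had values of 11.84, 11.95, 11.99 and 11.97 with SLIT2, against 11.68, 11.74, 11.91 and 11.85 with vehicle. These groups overlapped, and the difference of 0.14 (SE 0.061) had a limma adjusted p of 0.185, or 0.0148 with the replicate block. With averaged replicate pairs Jund did not pass (limma adjusted p = 0.157). Jund shares 877 exonic bases with the antisense gene Gm11175, and Jun shares 232 with Junos. Gm11175 averaged 4.83 with SLIT2 and 4.80 with vehicle, and Junos 4.63 with SLIT2 and 4.58 with vehicle.

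With the replicate block 7 of the 8 genes tested passed, 5 higher and 2 lower, against 33.0% of all genes. With the replicate pair as the block the count was also 7, against 39.3% of all genes. Over the JUN genes, the 95% limma intervals without the block ran from 0.60 to 0.89 for Junb, from 0.065 to 0.30 for Jun and from 0.0017 to 0.28 for Jund. The interval of Junb therefore did not meet those of Jun and Jund.

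Atf3 fell. Atf3 (ENSMUSG00000026628, chromosome 1, 191170296 to 191218039, minus strand, 4 exons) encodes a stress-induced factor that represses many inflammatory genes in macrophages. Its values were 12.21, 12.26, 12.45 and 12.54 with SLIT2, against 13.15, 13.24, 13.28 and 13.36 with vehicle. All SLIT2 libraries stood at least 0.61 below all vehicle libraries, and replicates 3 and 4 were the higher pair in both groups, unlike in Fos. Atf3 averaged 12.37 ± 0.16 with SLIT2 and 13.26 ± 0.087 with vehicle (SD, n = 4 each), a difference of -0.89 (SE 0.082, limma adjusted p = 3.63e-04). The pair 1, 2 gave -0.96 and the pair 3, 4 gave -0.83.

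Of the BATF genes, Batf rose and Batf3 did not pass. Batf (ENSMUSG00000034266, chromosome 12, 85686669 to 85709087, plus strand, 3 exons) is known mainly from T and B lymphocytes, where BATF binds with IRF4. Its values were 8.90, 8.98, 8.29 and 8.28 with SLIT2, against 8.12, 7.88, 7.53 and 7.64 with vehicle. The groups did not overlap, with 0.16 between SLIT2 replicate 4 and vehicle replicate 1, and replicates 1 and 2 were the higher pair in both. Batf averaged 8.61 ± 0.38 with SLIT2 and 7.79 ± 0.26 with vehicle (SD, n = 4 each), a difference of 0.82 (SE 0.20, limma adjusted p = 0.0335). The pair 1, 2 gave 0.94 and the pair 3, 4 gave 0.70, and with the replicate block the limma adjusted p was 8.43e-04. With each replicate pair averaged first, the limma adjusted p was 0.0435. Without the block the call was lost on leaving out SLIT2 replicate 1 (adjusted p = 0.0840) or 2 (0.0825), or vehicle replicate 2 (0.0680), 3 (0.0841) or 4 (0.0842).

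Batf3, needed for the cross-presenting type of dendritic cell, had values of 6.16, 6.24, 6.27 and 6.36 with SLIT2, against 6.08, 6.19, 6.36 and 6.14 with vehicle. The groups overlapped almost fully, and the difference was 0.065 (SE 0.085, limma adjusted p = 0.707, 95% interval -0.13 to 0.26). Over all 10 AP-1 genes the groups did not overlap in 6, all of them tested, where 20.5% of all genes tested had no overlap. SLIT2 was higher in 4 of them, against 10.6% of all genes, and lower in 2, against 9.99%. Each of these 6 genes reached 0.0286 in the exact permutation test, the smallest p that the design allows. Any gene whose groups do not overlap reaches it, so this unadjusted p restates the lack of overlap.

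**Figure D2:**
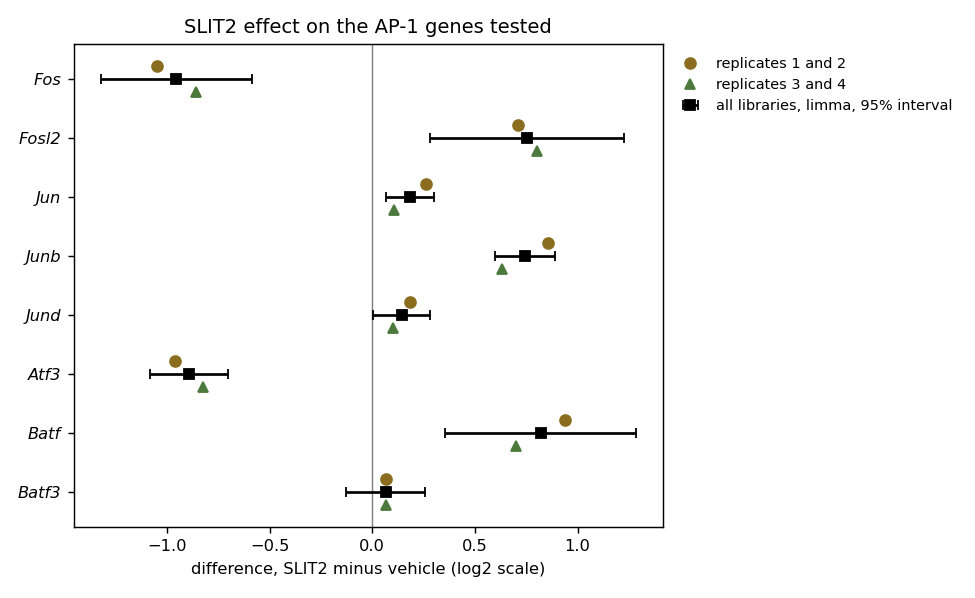
Difference of SLIT2 minus vehicle (log2 scale) for the 8 AP-1 genes tested, as squares with the 95% limma interval over all libraries, circles for replicates 1 and 2 and triangles for replicates 3 and 4. Fos and Atf3 lie below 0 and Fosl2, Junb and Batf above 0 in both replicate pairs.

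The genes also differed in how much of their variation went with treatment. Treatment took 95.6% of the sum of squares of Junb and 94.3% of that of Atf3. It took 81.7% for Fos, 67.8% for Batf and 62.5% for Fosl2, for which the replicate pair took 17.4%, 28.9% and 36.9%. In Fos, Fosl2 and Batf replicates 3 and 4 were lower than 1 and 2, by 0.44, 0.58 and 0.54 on average over both groups. In Atf3 they were higher, by 0.19. Of these 5 genes the spread within replicate pairs took between 0.10% and 1.92%. For Fosb and Batf3 it took 63.2% and 51.8%.

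**Figure D3:**
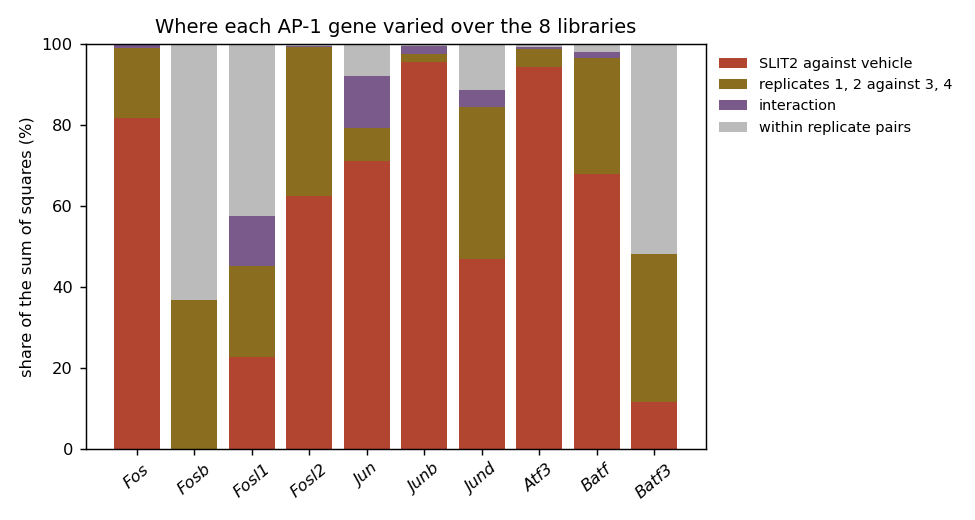
Share of the sum of squares over the 8 libraries (%) that went with treatment, with the split of replicates 1 and 2 from 3 and 4, with their interaction and with the spread within replicate pairs, for each AP-1 gene. Treatment took over 94% in Junb and Atf3 and 0.032% in Fosb.

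Levels of different genes can be compared only per transcript length. On the scale of rlog minus log2 of the length in kilobases of the main GENCODE transcript, Junb stood first with SLIT2 at 11.54, before Atf3 at 11.38, Jund at 11.20, Jun at 10.94 and Fos at 9.51. Fosl2 at 8.96 and Batf at 8.68 came next, closer than the SD of Batf, before Batf3 at 6.58, Fosl1 at 2.30 and Fosb at -0.30. With vehicle Atf3 was the highest, at 12.27. Jund followed at 11.06, then Junb at 10.80, Jun at 10.76, Fos at 10.46, Fosl2 at 8.20, Batf at 7.86, Batf3 at 6.51, Fosl1 at 2.51 and Fosb at -0.29. In the vehicle group Junb and Jun, Jun and Fos, and Fosl2 and Batf were no further apart than the larger SD of either. The first place of Junb with SLIT2 depended on the length used. With the length of all annotated exons the SLIT2 levels of Atf3, Jund and Junb were 11.26, 11.20 and 11.20.

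Ratios of family members within a library are given as a description with no test, since they were chosen after the values were seen. The log2 ratio of Fosl2 to Fos, not corrected for length, was 1.18, 1.18, 1.02 and 0.96 in SLIT2 libraries 1 to 4, against -0.60, -0.56, -0.68 and -0.66 in vehicle libraries. It averaged 1.09 ± 0.11 with SLIT2 and -0.63 ± 0.055 with vehicle (SD, n = 4 each), and the replicate pairs, which divided both genes, lay close in the ratio. The shift was 1.71 over all libraries, with 1.76 for the pair 1, 2 and 1.66 for the pair 3, 4. Per kilobase, Fos was above Fosl2 in both groups, by the levels above. The ratio of Junb to Jun averaged -0.22 ± 0.13 with SLIT2 and -0.78 ± 0.083 with vehicle. That of Atf3 to Jun averaged -0.25 ± 0.16 with SLIT2 and 0.82 ± 0.042 with vehicle.

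**Figure D4:**
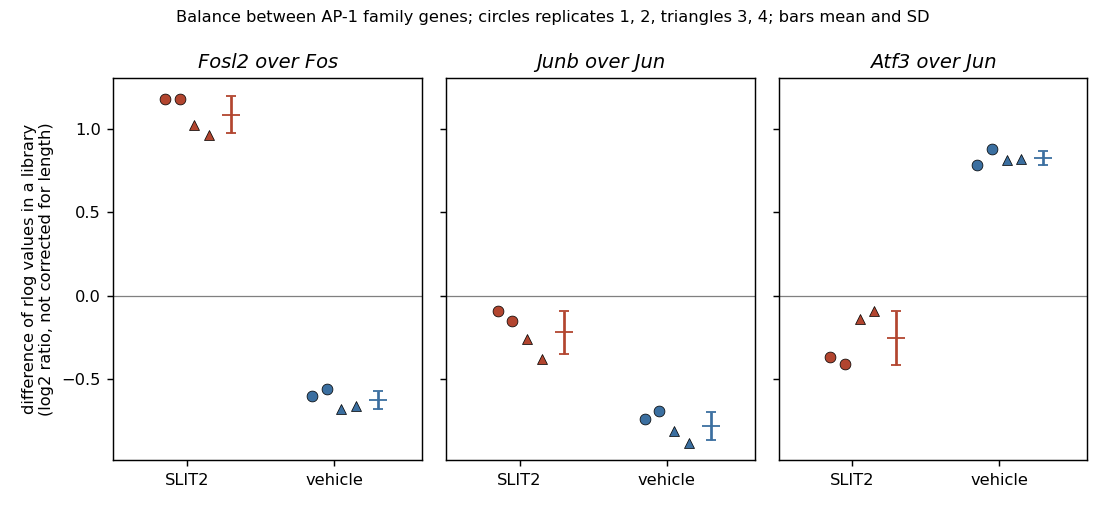
Log2 ratio of 2 AP-1 genes within each library, not corrected for transcript length, with SLIT2 left and vehicle right; circles are replicates 1 and 2, triangles replicates 3 and 4, and bars the mean and SD of 4 libraries. The ratio of Fosl2 to Fos is above 0 in every SLIT2 library and below 0 in every vehicle library.

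Several of these genes are neighbours on the chromosome, and neighbours did not move alike. Fos and Batf lie 209 kb apart on chromosome 12, with the gene of the JUN-dimerising repressor JDP2 between them (85599027 to 85639878, plus strand). Fos fell and Batf rose, while Jdp2 averaged 7.98 with SLIT2 and 7.83 with vehicle, a difference of 0.15 (SE 0.071, limma adjusted p = 0.233). Batf3 and Atf3 lie 61.4 kb apart on chromosome 1. Atf3 fell, and Batf3 did not pass.

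Similar profiles were sought over all genes tested apart from other AP-1 genes and genes with model names such as Gm or Rik. The measure was the root mean square difference of mean-centred rlog values over the 8 libraries. For Fos the closest genes were Zfyve28 (0.072) and Abcb4 (0.096), and for Atf3 they were Ptchd1 (0.069) and Matk (0.070). Junb was followed most closely by Fzd7 (0.034) and Ist1 (0.042), Fosl2 by Man1a (0.063) and Cd302 (0.065), and Batf by Chsy1 (0.076) and Icam1 (0.079). Among the AP-1 genes themselves, Jun and Jund were the closest at 0.058, followed by Jund and Batf3 at 0.068 and Jun and Batf3 at 0.11. None of these was called without the block, and genes that vary little come out close by this measure. Of the called genes, Fosl2 and Batf were the closest at 0.13. Atf3 and Batf were the furthest apart at 0.94.

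Of 19 other bZIP genes, many of which can pair with these factors, 16 were tested. Of these 2 rose and 1 fell, beside 13.3% of all genes called, and with the replicate block 4 passed as higher and 1 as lower, beside 33.0%. Their median log2 difference was 0.12, against 0.0025 over all genes tested. Among those that rose was Batf2, the remaining BATF gene, by 0.65 (limma adjusted p = 0.0130). Bach2, a repressor that binds MAF recognition elements, fell by 0.27 (limma adjusted p = 0.0422), a call lost on leaving out any 1 library (adjusted p up to 0.112). With Batf, Batf2 and Batf3 side by side, the differences were 0.82, 0.65 and 0.065. Of the IRF partners of BATF, Irf4 fell by 0.57 (5.55 ± 0.058 with SLIT2 and 6.12 ± 0.22 with vehicle, SD, n = 4 each, limma adjusted p = 0.0134). Irf8, the other partner gene tested, averaged 12.59 with SLIT2 and 12.48 with vehicle, a difference of 0.11 (limma adjusted p = 0.0943, or 0.0322 with the replicate block).

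The MAP kinase cascade acts upstream of FOS and JUN proteins and of their genes. Of its 21 genes, all tested, 2 fell and none passed as higher, beside 13.3% of all genes called, with a median of -0.015. With the replicate block 3 passed as higher and 4 as lower, beside 33.0% of all genes. Mapk3, the gene of ERK1, fell by 0.20 (limma adjusted p = 0.00464) and Mapk7, the gene of ERK5, by 0.17 (limma adjusted p = 0.0412), with the Mapk7 call lost on leaving out any 1 library (adjusted p up to 0.108). Of 11 serum response factor partners and CREB coactivators 1 rose and 1 fell, again beside 13.3% of all genes, with a median of 0.020. With the replicate block 3 passed as higher and 2 as lower, beside 33.0% of all genes. Crtc3, a CREB coactivator, rose by 0.63 (limma adjusted p = 0.00364), and Mrtfb, listed as Mkl2 and a coactivator of serum response factor, fell by 0.51 (limma adjusted p = 0.00203). None of 6 genes acting on JUN or FOS protein stability passed limma's test, beside 13.3% of all genes called. None had an unadjusted p under 0.05, and the smallest was that of the ligase gene Itch (difference 0.045, adjusted p = 0.667).

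Of 6 genes whose proteins act on the decay of early response messages, 2 rose and 1 fell, beside 6.76% of all genes higher and 6.58% lower, with a median of 0.078. Zfp36, the gene of tristetraprolin, which destabilises AU-rich messages, rose to 11.58 ± 0.098 with SLIT2, against 11.13 ± 0.12 with vehicle (SD, n = 4 each), a difference of 0.45 (limma adjusted p = 0.00547). Its relative Zfp36l1 rose by 0.32 (limma adjusted p = 0.0390) and Zfp36l2 fell by 0.18 (0.0344). These last calls were each lost in 7 of 8 fits that left out a library, with adjusted p up to 0.105 and 0.0900.

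Other early response genes went both ways. Of 19, 17 were tested, 3 rose and 5 fell, beside 13.3% of all genes called, with a median of -0.16. With the replicate block 4 passed as higher and 8 as lower, beside 33.0% of all genes. Ier3, a survival gene, rose by 1.90 (limma adjusted p = 1.38e-04), and Egr2 and Nr4a1, both transcription factor genes, had differences of -1.05 (9.73e-04) and -1.02 (0.0114). For Nr4a1 the pair 1, 2 gave -1.49 and the pair 3, 4 gave -0.56. Klf4 and Ier2 also rose, by 0.87 and 0.25, and Myc, Egr1 and Dusp6 had differences of -0.86, -0.83 and -0.69. Dusp6, a phosphatase that acts on ERK, lost its call in 6 of 8 fits that left out a library (adjusted p up to 0.111). Of 7 heat shock genes that react to cell handling 6 were tested. None passed limma's test, beside 13.3% of all genes called, and none had an unadjusted p under 0.05. The smallest was that of Hsp90aa1, with a difference of -0.17 (limma adjusted p = 0.332, or 0.0396 with the replicate block).

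Genes often cited as AP-1 targets also went both ways. Of 28, 25 were tested, 3 rose and 7 fell, with a median of -0.14. With the replicate block 8 passed as higher and 11 as lower, beside 33.0% of all genes. Il1b, the gene of interleukin-1 beta, rose by 2.75 (limma adjusted p = 0.00354). Dcstamp, needed for cell fusion in osteoclasts, had a difference of -1.40 (0.00615), and Ccnd1, the gene of cyclin D1, one of -1.24 (1.97e-04). Spp1, the osteopontin gene, rose by 0.62, and Timp1, an inhibitor of metalloproteases, by 1.01. The urokinase gene Plau fell by 0.91 and Plaur, the gene of its receptor, by 1.17, the elastase gene Mmp12 by 0.91, Tnf by 0.71 and the integrin gene Itgax by 0.70. Spp1 lost its call in 7, Mmp12 in 6 and Plau in 2 of 8 fits that left out a library, with limma adjusted p up to 0.100, 0.0968 and 0.0519. The list holds targets of other factors too, and 13.3% of all genes tested passed.

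**Figure D5:**
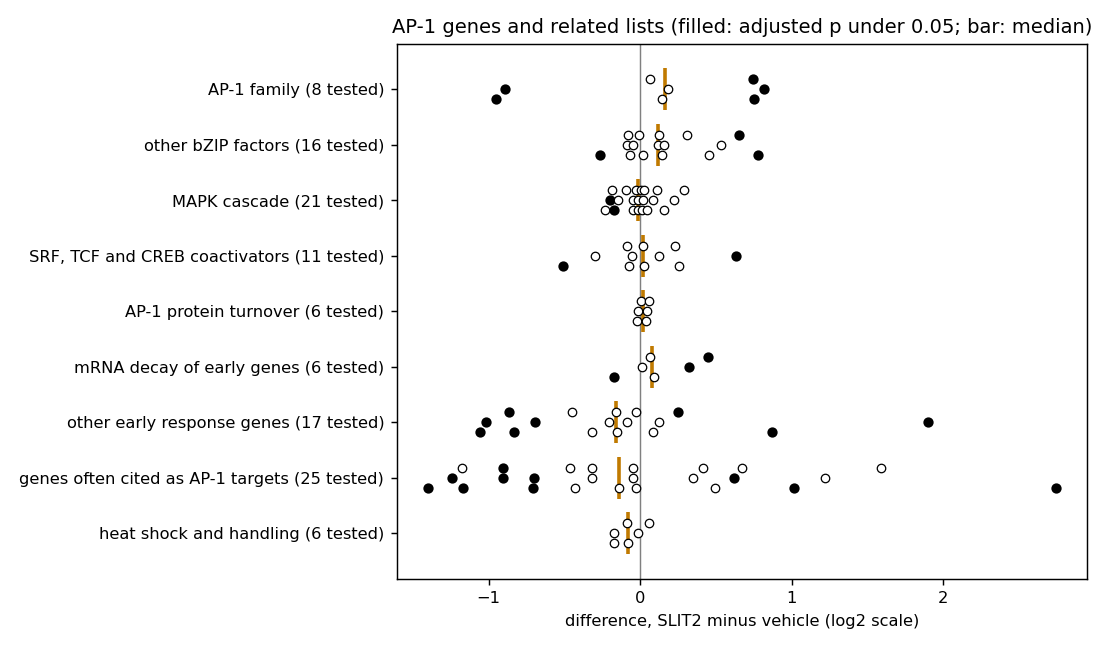
Difference of SLIT2 minus vehicle (log2 scale) of each gene tested in the AP-1 family and in 8 related lists; filled points passed limma's test at an adjusted p of 0.05 and bars mark list medians. AP-1 genes reach from -0.96 (Fos) to 0.82 (Batf), while the 21 MAP kinase cascade genes stay within 0.3 of 0.

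The macrophage label matched its markers, all 10 of which were tested. Their summed level lay between 19.2 and 19.7 in SLIT2 libraries and between 19.1 and 19.6 in vehicle libraries, on the log2 scale of summed linear rlog values. Mrc1 and Fcgr1 rose by 1.18 and 1.17 and Cd68 fell by 0.25, the last call being lost in 4 of 8 fits that left out a library (limma adjusted p up to 0.0566). These calls, 2 higher and 1 lower, stand beside 13.3% of all genes called. Because Batf and Batf3 are known from lymphocytes and dendritic cells, markers of these cells are given beside them. None of 7 T and NK cell markers and none of 5 B cell markers reached the level for testing. Their summed levels were 3.42 to 3.48 and 4.51 to 4.54 with SLIT2, against 3.43 to 3.55 and 4.49 to 4.57 with vehicle. Cd3e and Cd3g stood at -2.14 on average in both groups, the lowest value of the table. Ncr1 and Pax5 were listed at 0, which need not mean absence, given that the macrophage gene Tyrobp also has a 0 in every library. Of 7 dendritic cell markers 1 was tested, Xcr1, with a difference of -0.16 (limma adjusted p = 0.620), and their summed level was 5.22 to 5.69 with SLIT2 and 5.26 to 5.63 with vehicle.

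Among other marker lists, the 7 neutrophil markers had a summed level of 11.8 to 12.2 with SLIT2 and 11.2 to 11.4 with vehicle. This was carried by Csf3r, 1 of 2 tested, which rose by 0.68 (limma adjusted p = 0.00215), beside 6.76% of all genes higher. S100a8, the other marker tested, had a difference of -0.155 (limma adjusted p = 0.413). S100a9, below the level for testing, had one of -0.26. Mpo and Elane stood at -2.14 and Ly6g and Retnlg were listed at 0. The 5 mast cell and basophil markers had 4.81 to 5.19 with SLIT2 and 5.23 to 5.69 with vehicle, with 1 tested, Kit (difference -0.51, limma adjusted p = 0.0869), and Cpa3 and Fcer1a listed at 0. The 7 stromal and endothelial markers had 8.63 to 9.24 with SLIT2 and 8.45 to 9.09 with vehicle. Of these Col3a1, 1 of 3 tested, rose by 0.67 (limma adjusted p = 0.0422), beside 6.76% of all genes higher. That call was lost in 7 of 8 fits that left out a library (adjusted p up to 0.107). The part of these cells in the AP-1 differences was not tested.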

How the data were processed

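RNA-seq libraries of 4 SLIT2 and 4 vehicle samples were analysed from the deposited table of rlog values on a log2 scale, which the authors gave to 2 decimals for each gene. Per the submitters' processing notes, the tools were STAR, Salmon, DESeq2, Picard 2.23.8, SAMtools 1.7 and FastQC 0.11.9, and the builds mm10 and GRCm38. Tool settings were not stated. Depth per library is unknown, since no read counts are in the table, and the number of libraries limits the precision.

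Of the genes, those averaging 4 or more in rlog were fitted with limma 3.58.1 in R 4.3.3 (lmFit, eBayes with a variance trend), for SLIT2 minus vehicle (two-sided). The adjustment was Benjamini-Hochberg's, over 11851 genes. The interaction fit added the replicate pair. The exact permutation test used all 70 splits. Steps were tested on simulated data. Named genes were all AP-1 genes and up to 3 called members of each list, otherwise the member with the smallest p. Also named were the 2 closest profiles of each called AP-1 gene. Jdp2, Irf8, S100a8, S100a9, the overlapping genes Prdx2, Ccdc85b, Junos and Gm11175, and further called list members were added after their values were seen. The AP-1 genes and lists were chosen with earlier results of these data known. List genes were matched by identifier through GENCODE M21, to which 41157 identifiers matched; coordinates, lengths and overlaps come from it, and promoter windows from RefSeq (GRCm38.p6). Values of some list genes are not reported here. Figures were drawn with matplotlib 3.10.9.

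Deviations from the group means correlated across genes between SLIT2 and vehicle samples of one number, at 0.637, 0.671, 0.753 and 0.587. The differences 1 minus 2 and 3 minus 4 correlated at only -0.042 and 0.088 between the groups, so the data tie samples by the pair 1, 2 or 3, 4 and not by the single number. Fits with either as the block are given as alternatives. The labels do not tie replicates to separate cultures or mice. The p-values thus reflect only how far these libraries vary, which may be technical. Alternatives were a replicate block, a pair block, averaged replicate pairs, other filters, variance priors and scalings, each pair alone, and leaving out each library.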

Additional observations from a re-analysis of the deposited data

Results flagged for a closer look

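Junb rose less in replicates 3 and 4 than in replicates 1 and 2, and the difference of the SLIT2 effect between the pairs was -0.225 (limma interaction adjusted p = 0.0442). For Batf that difference was -0.24, without a call (limma interaction adjusted p = 0.361). Fosb in SLIT2 replicate 2, at 1.85, and in vehicle replicate 2, at 1.88, stood above the other 3 libraries of its group, which lay between 1.54 and 1.55 with SLIT2 and between 1.53 and 1.55 with vehicle. Fosb was below the level for testing, and how many reads lie behind this step is unknown. Chance flags about 1 in 20 groups, and 20 groups of 4 libraries were examined.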

How the results depend on the processing

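The 5 AP-1 calls (3 higher, 2 lower) became 7 with the replicate block and with the pair block, 5 with averaged replicate pairs, a minimum mean of 6, robust eBayes, quantile normalization or median centring, 4 with no filter or no variance trend, 7 in replicates 1 and 2 alone, 5 in replicates 3 and 4 alone, and 3 to 5 on leaving out each library. Over all genes, 1581 calls became 3912 with the replicate block, 4652 with the pair block, 688 with averaged replicate pairs, 3962 and 2880 within replicates 1 and 2 and replicates 3 and 4, and 1021 to 1254 on leaving out a library. The single AP-1 call of the interaction became 0 with no filter, with no variance trend and with quantile normalization, and 0 to 1 on leaving out a library. Members past the exact permutation test numbered 6, and 3 to 6 on leaving out a library, an alternative added after the data were seen. None of the 8 AP-1 genes tested changed sign. Of other named genes, Gm11175 was -0.015 in replicates 1 and 2 alone and -0.016 to 0.074 on leaving out a library (below 0 without SLIT2 replicate 3 or vehicle replicate 4), and Junos was -0.030 in replicates 3 and 4 alone, with none of these negative values called and the cause not tested. Among the tested genes named above, the replicate block added calls for Jun, Jund, Hsp90aa1, Kit, Irf8, Ccdc85b and Cd302 and changed no other. List genes without a name here also gained calls, as the block counts of their lists show. Library depth is unknown, and Fosb and Fosl1 were too low to enter the fit.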
